A study of Apis mellifera with 6 samples.

Results

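The genes ecd, E75 and Jhe, tied to the insect moulting and juvenile hormones, were examined in the midgut of honey bees (Apis mellifera) fed tunicamycin. They are 3 of the 10013 genes listed in the deposited tables and were found by their gene identifiers. They were chosen by their own difference between tunicamycin and control samples, so their levels in these groups are given as a description, with no test. Tunicamycin blocks the start of N-glycosylation and so loads the endoplasmic reticulum with misfolded proteins. One group was fed 24 µM tunicamycin in sucrose with 0.5% DMSO, the solvent, for 24 hours (3 samples, numbered 2, 3 and 4). The control group was fed sucrose with 0.5% DMSO for the same time (3 samples, numbered 1, 2 and 3). The labels give no age, colony, strain or number of bees per sample, and nothing in them says that the samples came from separate cages.

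Ecdysone is the steroid that times insect moults, and its active form binds a receptor of EcR and Usp, which switches on a cascade of early response genes. E75 belongs to that cascade; it is a nuclear receptor that in flies carries heme. The ecd gene takes its name from the fly mutant ecdysoneless, which makes too little ecdysone, and its protein also acts in pre-mRNA splicing in flies. Juvenile hormone opposes or shapes many ecdysone responses, and Jhe encodes the esterase that breaks it down. In adult flies ecdysone also acts on stem cells of the gut, although adult insects no longer moult.

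The tables hold counts of reads that were scaled by a factor per sample, called normalized reads here. Recovered reads came to between 22763496 and 25025084 in tunicamycin samples and between 23305215 and 26278751 in controls. A pair of samples stood apart on principal components of all genes. Tunicamycin 3 lay at -6.2 on the first component, against -28.6 and -35.8 for tunicamycin 2 and 4, and control 1 lay at 48.7 on the second, against -21.3 and -14.3 for controls 2 and 3. The alpha-glucosidases Hbg2, Hbg3 and AGLU2 were sought as markers of the bee midgut. They summed to between 701920 and 1302930 normalized reads in tunicamycin samples and between 1103660 and 1592450 in controls. Nearly all of each sum came from Hbg2 and AGLU2, which averaged 561762 and 492950 in tunicamycin and 669161 and 668191 in controls. Hbg3 averaged 846 in tunicamycin and 1504 in controls, so the sums say little of it. The labelled tissue thus carried Hbg2 and AGLU2 in each sample. The log2 differences of Hbg2, Hbg3 and AGLU2 were -0.30 (SE 0.55), -0.84 (SE 0.23) and -0.46 (SE 0.47) in tunicamycin minus control, and none passed in limma. Hbg3 had 950.5, 989 and 599 normalized reads in tunicamycin samples 2, 3 and 4, against 1168, 1609 and 1736 in controls 1, 2 and 3; its groups did not overlap, it passed in DESeq2 (adjusted p = 0.0267), and its part in the level of Jhe, which was also lower in tunicamycin, was not tested.

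The ecd gene was higher in tunicamycin. It had 649.7, 799 and 794 normalized reads in tunicamycin samples 2, 3 and 4, against 465, 385 and 383 in controls 1, 2 and 3. The groups did not overlap, and the nearest pair was tunicamycin 2 and control 1, at a ratio of 1.40. The means were 748 ± 84.8 in tunicamycin and 411 ± 46.8 in controls (SD, n = 3 each), a difference of 0.86 between mean log2(value + 1), or 1.82-fold. The spread within groups was small: the coefficient of variation was 11.3% in tunicamycin and 11.4% in controls, while the counting error of 596 to 842 reads in tunicamycin samples was 3.4% to 4.1% and that of 394 to 465 reads in controls was 4.6% to 5.0%. The SD within groups was 0.16 on the log2 scale, close to the median of 0.18 for the 3188 genes whose mean lay within 2-fold of its own. The difference was 0.95 without control 1 and 0.81 without tunicamycin 3.

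E75 was also higher in tunicamycin and was the most deeply counted of these genes. It had 44224, 29192 and 36222 normalized reads in tunicamycin samples 2, 3 and 4, against 14851, 20670 and 21134 in controls 1, 2 and 3. Tunicamycin 3 was the lowest of its group and control 1 the lowest of all, and the groups did not overlap. The means were 36546 ± 7522 in tunicamycin and 18885 ± 3502 in controls (SD, n = 3 each), a log2 difference of 0.95, or 1.93-fold. Counting error was 0.60% or less in tunicamycin samples and 0.82% or less in controls, against coefficients of variation of 20.6% in tunicamycin and 18.5% in controls, so that nearly all of the spread lay between the samples and not in the counting. Scaled to library size alone, E75 stood at 1782, 1104 and 1593 CPM in tunicamycin samples 2, 3 and 4 and 637, 845 and 877 in controls 1, 2 and 3. RefSeq lists 5 transcripts of E75 with 5 proteins, and the tables give 1 value for the gene, so the share of each isoform cannot be read from them. The difference was 0.79 without control 1 and 1.10 without tunicamycin 3.

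Jhe was lower in tunicamycin. It had 1269.9, 2116 and 948 normalized reads in tunicamycin samples 2, 3 and 4, against 2571, 3719 and 3009 in controls 1, 2 and 3. Tunicamycin 3 came closest to the controls, at 0.823 times the level of control 1, and the groups did not overlap. The means were 1445 ± 604 in tunicamycin and 3099.5 ± 579 in controls (SD, n = 3 each), a log2 difference of -1.17, or 0.446 times the control level. Jhe varied more than most genes of its level. Its SD within groups was 0.46 on the log2 scale, against a median of 0.17 for the 1769 genes whose mean lay within 2-fold of its own, and 91.9% of those genes had a smaller SD. The coefficient of variation was 41.8% in tunicamycin and 18.7% in controls, with a counting error between 2.2% and 3.2% in tunicamycin samples and between 1.6% and 2.0% in controls. The difference was -1.29 without control 1 and -1.48 without tunicamycin 3. In RNA from whole midguts, fewer cells of a type and less RNA per cell cannot be told apart.

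**Figure D1:**
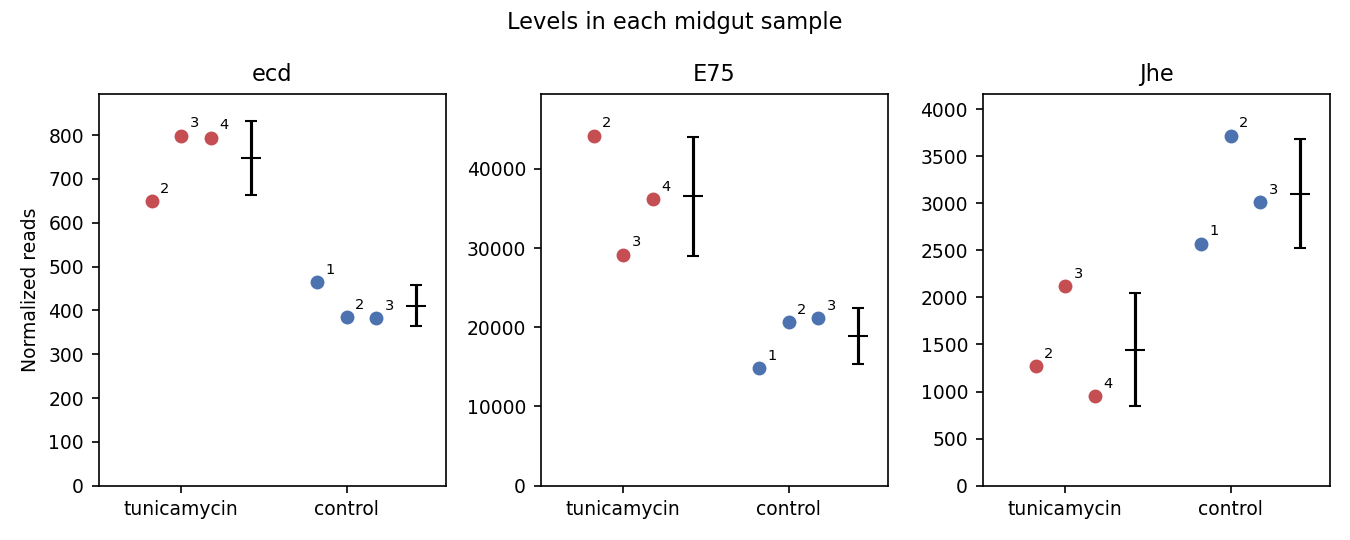
Normalized reads (vertical axes, starting at 0) of ecd, E75 and Jhe in each sample, with the sample number beside each point and the mean ± SD of 3 samples as a black bar. The lowest ecd value in tunicamycin is 649.7 and the highest in controls 465; the highest Jhe value in tunicamycin is 2116 and the lowest in controls 2571.

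The lowest tunicamycin sample lay above the highest control for 2 of the 3 genes, and the highest tunicamycin sample lay below the lowest control for 1. Of all 10013 genes, 11.0% lay wholly higher and 10.7% wholly lower in this way. Nothing is read from that comparison, since the same values chose the 3 genes.

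The samples did not rank alike for the 3 genes. Over the 9 pairings of a tunicamycin sample with a control, the ratio of tunicamycin to control ran between 1.40 and 2.09 for ecd, between 1.38 and 2.98 for E75 and between 0.255 and 0.823 for Jhe. Tunicamycin 3 gave the E75 and Jhe ratios nearest to 1 against each control, while its ecd value was the highest of all 6 samples. In the tables as deposited, which set tunicamycin 2 beside control 1, tunicamycin 3 beside control 2 and tunicamycin 4 beside control 3, the ecd ratios were 1.40, 2.07 and 2.07, the E75 ratios 2.98, 1.41 and 1.71, and the Jhe ratios 0.494, 0.569 and 0.315.

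Hsc70-3, the chaperone BiP of the endoplasmic reticulum, served as a mark of exposure. It had 211942, 267564 and 317129 normalized reads in tunicamycin samples 2, 3 and 4, against 68417, 35140 and 25372 in controls 1, 2 and 3. Control 1, where Hsc70-3 was highest among controls, also had the highest ecd and the lowest Jhe and E75 of that group. Its E75 thus lay farther from the tunicamycin samples than that of controls 2 and 3, and its ecd and Jhe lay nearer to them. Tunicamycin 3 was in the middle of its group for Hsc70-3 and lowest for E75.

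**Figure D2:**
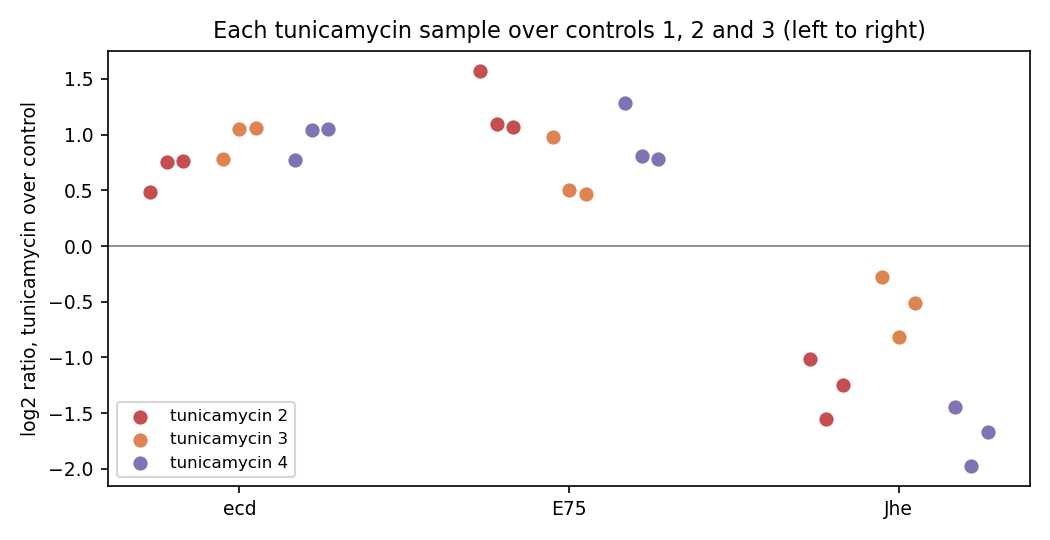
log2 ratio of each tunicamycin sample (colours) to controls 1, 2 and 3 (left to right within a colour) for ecd, E75 and Jhe; the line at 0 marks equal levels. All ecd and E75 points lie above 0 and all Jhe points below it, and against each single control the orange point of tunicamycin 3 is the nearest to 0 for E75 and Jhe.

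Other hormone genes that could be matched by name were tested in a fit over all 10013 genes (limma-trend on log2(value + 1), Benjamini-Hochberg adjustment). A list of 68 symbols of synthesis, receptor, response and binding genes, aliases included, matched 9 genes besides the 3 above. Most identifiers are LOC numbers, which a search by symbol can miss. Symbols without a match included nvd, phm, dib, ftz-f1, Hr3, Jheh, Met, gce and tai. The 9 genes therefore do not stand for the whole of either hormone pathway. None of the 9 passed at an adjusted p under 0.05 in either direction, in a fit that called 1.06% of all genes higher and 0.0699% lower in tunicamycin. Before adjustment 0 of the 9 had a limma p under 0.05, where 15.5% of all genes did, and limma-voom, edgeR and DESeq2 on the recovered reads called 0 of the 9. The limma count at an adjusted p under 0.05 was also 0 without control 1 and without tunicamycin 3. Before adjustment it became 1 without tunicamycin 3, without control 2 or with the replicate block by deposited table, and 2 without tunicamycin 2, each time higher in tunicamycin. DESeq2 called 4.26% of the 9403 genes with an adjusted p higher and 1.24% lower. The limma adjusted p of the 9 lay between 0.388 and 0.996. Their median log2 difference was 0.28, with 7 positive and 2 negative, beside a median of 0.0014 and 50.2% positive over all genes. Br-c (0.024), Vg (0.028) and Usp (-0.0017) lay near 0, and their signs turned in 8, 9 and 4 of 17 alternative fits.

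Among the makers of ecdysone, Cyp314a1, the enzyme known in flies as shade that turns ecdysone into its active form, had 254, 168 and 248 normalized reads in tunicamycin samples 2, 3 and 4, against 126, 176 and 212 in controls 1, 2 and 3. The groups overlapped, at a log2 difference of 0.39 (SE 0.25). The receptor subunit Ecr averaged 9155 ± 1678 in tunicamycin and 7512 ± 1020 in controls (SD, n = 3 each; log2 0.28, SE 0.18). Its partner Usp, named here after its values were seen because it had the smallest difference, averaged 1377 ± 172 in tunicamycin and 1374 ± 115 in controls, at a log2 difference of -0.0017 (SE 0.13). The groups of Ecr and of Usp overlapped.

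The other response genes of the cascade did not pass either. E74, an ETS-type transcription factor induced by ecdysone in flies, had 1470.4, 2067 and 2026 normalized reads in tunicamycin samples 2, 3 and 4, against 1277, 1683 and 1394 in controls 1, 2 and 3 (log2 0.35, SE 0.17). Tunicamycin 2, where E75 was highest, had the lowest E74 of its group. Mblk-1, the bee relative of fly E93, averaged 89511 ± 14022 in tunicamycin and 96498 ± 14084 in controls (log2 -0.11, SE 0.24). Br-c, the zinc-finger factor of the Broad complex, had 573, 315 and 504 in tunicamycin samples 2, 3 and 4, against 199.98, 649.6 and 665 in controls 1, 2 and 3 (log2 0.024, SE 0.48). Control 1 stood far below the other controls for Br-c, and the sign of its difference turned in 8 of 17 alternative fits. Within a library, the ratio of E75 to Ecr reads was 4.52, 4.03 and 3.48 in tunicamycin samples 2, 3 and 4, against 2.34, 2.53 and 2.63 in controls 1, 2 and 3. The ratio of E75 to E74 was 30.1, 14.1 and 17.9 in the same tunicamycin samples, against 11.6, 12.3 and 15.2 in the controls, and there the groups overlapped. Nothing is read from either ratio, since E75 was chosen for its own difference between these groups.

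On the juvenile hormone side, LOC724216, which RefSeq lists under the synonym jhamt, the methyltransferase of hormone synthesis, had 105, 253 and 656 normalized reads in tunicamycin samples 2, 3 and 4, against 417, 95.9 and 183 in controls 1, 2 and 3 (log2 0.41, SE 0.73). Its samples were scattered in both groups. JHBP-1, named as a juvenile hormone binding protein, averaged 340.4 ± 102 in tunicamycin and 235 ± 69.0 in controls (SD, n = 3 each; log2 0.53, SE 0.31), and the difference was 0.26 without control 3. Vg, the yolk protein precursor vitellogenin, whose level in bees is tied to juvenile hormone, had 14.2, 69.8 and 9.43 in tunicamycin samples 2, 3 and 4, against 5.999, 95.9 and 14.6 in controls 1, 2 and 3. These values are too low and too scattered to read a difference from (log2 0.028, SE 1.08). Kr-h1, the juvenile hormone response factor, was sought, but its RefSeq symbol was not among the genes listed, so it was not analysed here.

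**Figure D3:**
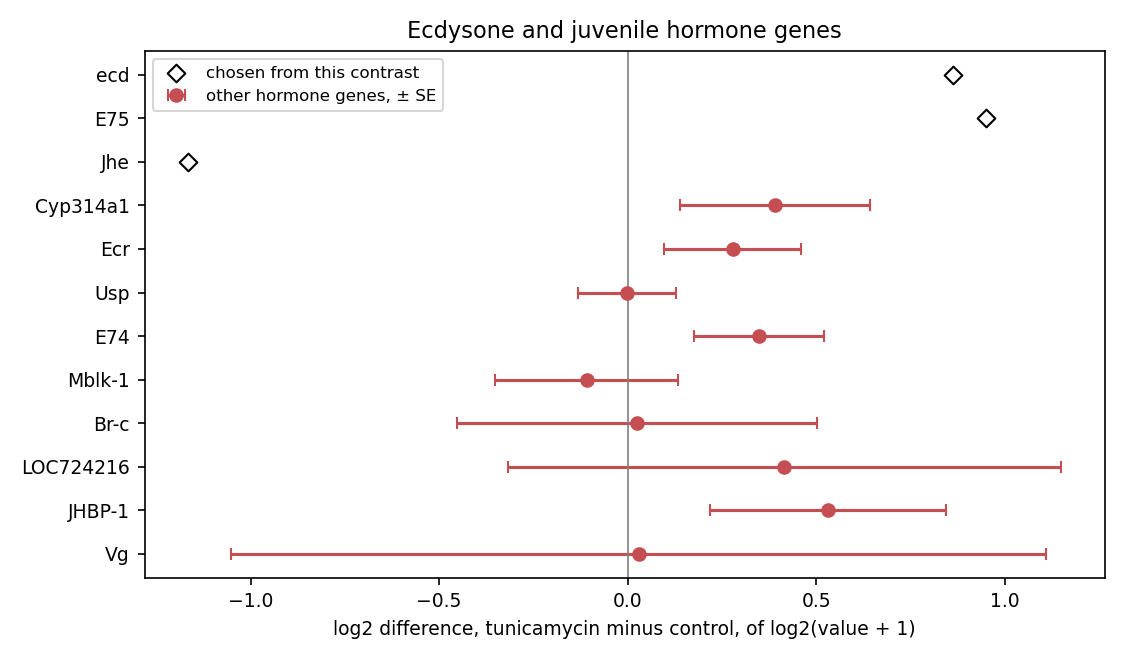
log2 difference between tunicamycin and control (horizontal axis) for ecd, E75 and Jhe (open diamonds, chosen from this contrast and shown without error) and for 9 other hormone genes (circles, bars ± SE of the limma fit). The diamonds lie at 0.86, 0.95 and -1.17, and the circles between -0.11 and 0.53.

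Genes that lie beside or across one another can share reads, and the counting strand is not given in the sources used here. In RefSeq assembly Amel_HAv3.1, used for gene order alone, LOC727144 overlaps ecd at one end and LOC100577253 spans the whole of Jhe, while no other gene of that table overlaps E75 among its 4 neighbours on each side. LOC727144 had 764, 760.0 and 774 normalized reads in tunicamycin samples 2, 3 and 4, against 758, 873 and 785 in controls 1, 2 and 3 (log2 -0.069, SE 0.11). LOC100577253 had 3394, 3040.1 and 2551 in tunicamycin samples 2, 3 and 4, against 2001, 3248 and 2981 in controls 1, 2 and 3 (log2 0.15, SE 0.20; limma adjusted p = 0.769). The groups of both genes overlapped. How many reads of Jhe the counting gave to LOC100577253, or dropped, was not tested.

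Of the neighbours within 4 places in the gene order, 6 of ecd, 4 of E75 and 4 of Jhe were listed in the tables, and 0 of these 14 passed in limma, near the 1.06% higher and 0.0699% lower of all genes. The gene just after ecd, LOC727127, had the nearest to a like difference. It had 1078, 955 and 917 normalized reads in tunicamycin samples 2, 3 and 4, against 753, 658 and 626 in controls 1, 2 and 3 (log2 0.54, SE 0.12; limma adjusted p = 0.108). LOC726175, 2 places before Jhe, averaged 17076 ± 1851 in tunicamycin and 24630 ± 3328 in controls (log2 -0.53, SE 0.17; limma adjusted p = 0.213).

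**Figure D4:**
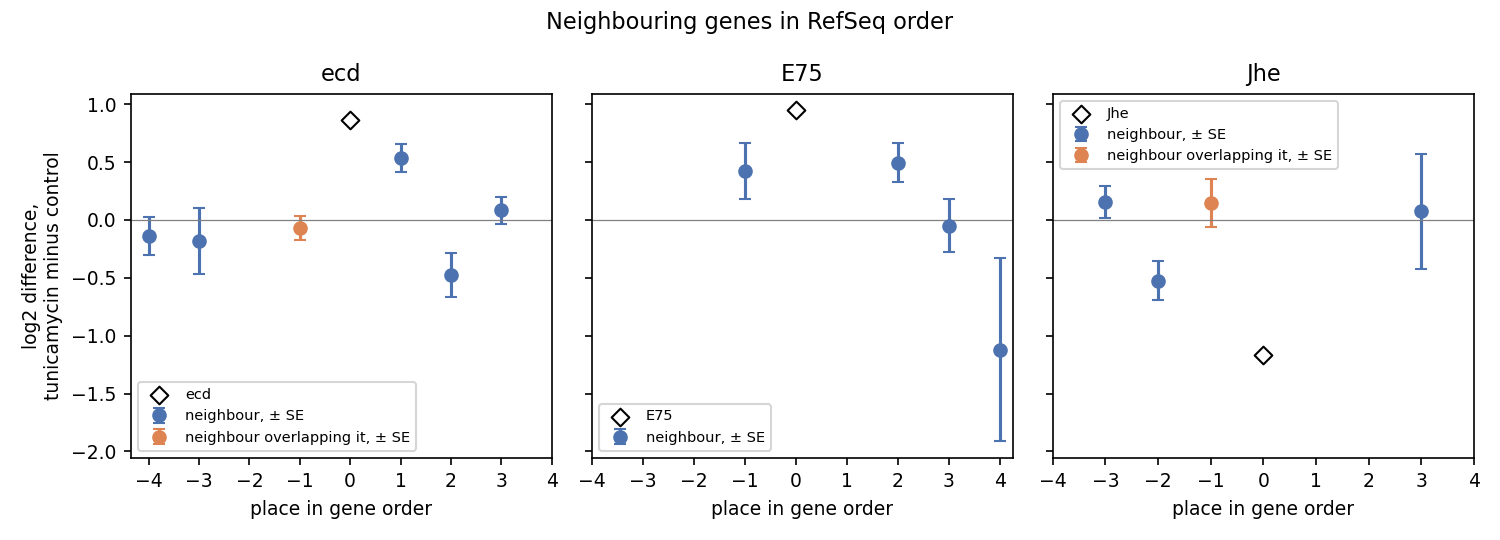
log2 difference between tunicamycin and control (vertical axis, ± SE) of the listed genes up to 4 places before and after ecd, E75 and Jhe in RefSeq order (horizontal axis, in genes); open diamonds are the 3 genes themselves and orange points are genes that overlap them. LOC100577253, which spans Jhe, lies at 0.15 while Jhe lies at -1.17.

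The named genes with the most similar profile were sought among 217 genes with a symbol and a mean of at least 100 normalized reads, by the root-mean-square difference of log2 values over the 6 samples after each gene was centred on its own mean. This likeness is a description, since all of these values took part in the choice of the 3 genes. Nearest to ecd were Ppib, the cyclophilin B of the endoplasmic reticulum, at 0.13, and Hsc70-5, the mitochondrial HSP70, at 0.14, against a median of 0.50 over the 217 genes. Ppib had 13041, 13983 and 14542 normalized reads in tunicamycin samples 2, 3 and 4, against 9906, 7672 and 8712 in controls 1, 2 and 3. Like ecd, it was lowest in sample 2 of the tunicamycin group and highest in control 1 of the controls.

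Nearest to E75 were Glob1, a globin, and Syx1A, a syntaxin of membrane fusion, each at 0.15, against a median of 0.56. Glob1 had 4882, 3169 and 4243 in tunicamycin samples 2, 3 and 4, against 1512, 2528 and 2967 in controls 1, 2 and 3, with the low values of tunicamycin 3 and control 1 that E75 also had. The named genes nearest to Jhe were farther off, with Hbg3, an alpha-glucosidase, at 0.29 and GlnS at 0.29, against a median of 0.74. GlnS had 11492, 15242 and 10313 in tunicamycin samples 2, 3 and 4, against 14939.7, 25988 and 20821 in controls 1, 2 and 3. Ppib, Hsc70-5, Glob1, Syx1A, Hbg3 and GlnS did not pass in limma (adjusted p = 0.0878, 0.0939, 0.218, 0.105, 0.163 and 0.232), and Hbg3 passed in DESeq2 (adjusted p = 0.0267). All 7434 genes of that level, most of them LOC numbers, were searched after the named ones were seen. That pool holds the named genes too, so its nearest gene cannot lie farther off. The nearest were LOC552583 at 0.071 and LOC411006 at 0.081 for ecd, LOC409876 at 0.097 for E75 and LOC107964718 at 0.11 for Jhe. LOC552583 and LOC411006 passed in limma (adjusted p = 0.0409 and 0.0369), where 1.06% of all genes were called higher. Nothing is read from these passes, since both genes were picked for their likeness to ecd, which was chosen for its difference.

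**Figure D5:**
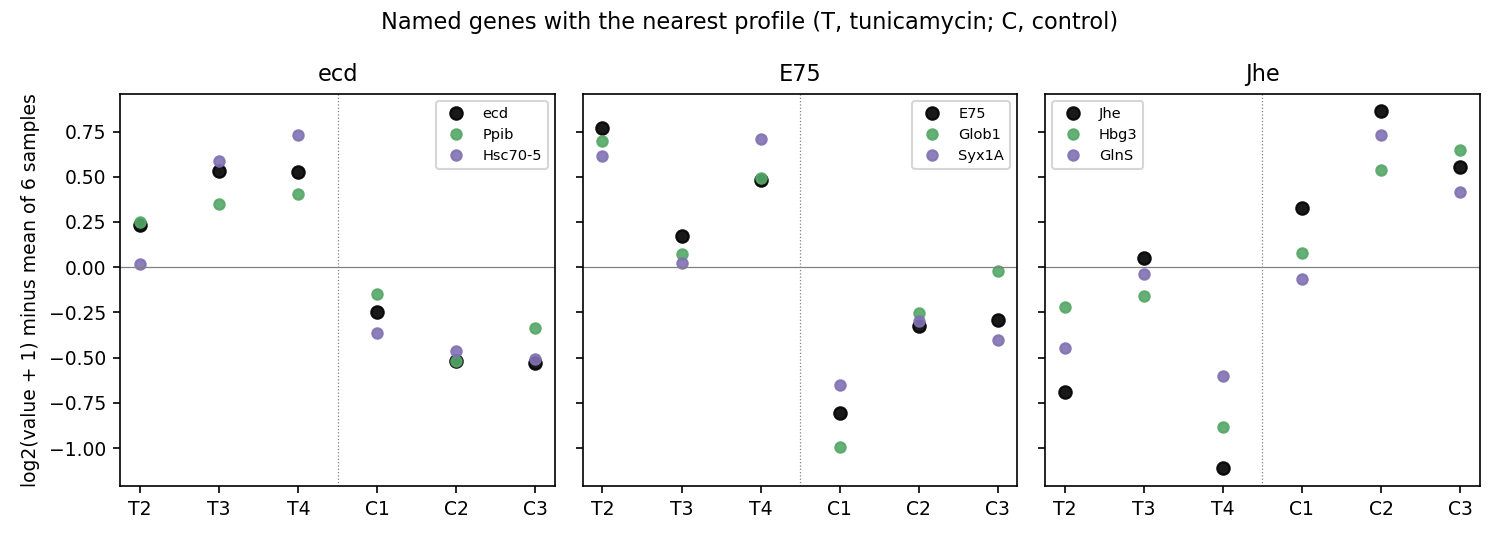
log2(value + 1) minus the mean of the 6 samples (vertical axis) for ecd, E75 and Jhe (black) and the pair of named genes nearest to each (green and violet), in tunicamycin samples T2, T3 and T4 and controls C1, C2 and C3. Control 1 is the lowest sample of E75, Glob1 and Syx1A.

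Jhe is known in insects mainly from the fat body, whose markers were therefore set beside it. Of 7 fat body genes sought, 5 were matched (Vg, Hex70a, HEX70b, Hex70c and Hex110). They summed to between 448 and 789.6 normalized reads in tunicamycin samples and between 689.9 and 918 in controls, with none at 0 in any library. None passed in limma. HEX70b, Hex70c, Hex110 and Vg had groups that overlapped, at log2 differences of -0.20 (SE 0.36), -0.16 (SE 0.62), -0.027 (SE 0.26) and 0.028 (SE 1.08). Hex70a, a storage protein, had 107, 147 and 126 in tunicamycin samples 2, 3 and 4, against 297, 194 and 184 in controls 1, 2 and 3 (log2 -0.80, SE 0.23; limma adjusted p = 0.176), so that its groups did not overlap. The part of fat body RNA in the Jhe difference was not tested.

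Other cell types of the gut were checked in the same way. The enteroendocrine peptides Tk and NPF, 2 of 3 genes sought, summed to between 662 and 1049.7 normalized reads in tunicamycin samples and between 581 and 660.5 in controls. The lowest tunicamycin sum (661.9) lay just above the highest control sum (660.5), while the groups of Tk and of NPF each overlapped. Of all 10013 genes, 11.0% lay wholly higher in tunicamycin. Neither Tk nor NPF passed in limma. The 4 muscle genes matched of 5 sought summed to between 5571 and 7433 in tunicamycin samples and between 4404 and 7310.0 in controls. PPO of hemocytes was between 42.5 and 67.9 in tunicamycin samples and between 59.6 and 71.9 in controls, and Syt1 of neurons between 47.1 and 68.7 in tunicamycin samples and between 38.0 and 89.4 in controls. Mrjp4 and Mrjp7, the 2 of 6 hypopharyngeal gland genes matched, summed to between 1025 and 1544 in tunicamycin samples and between 744 and 1344 in controls. Their part in the levels of ecd, E75 and Jhe was not tested.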

How the data were processed

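RNA of honey bee midgut was sequenced as poly(A) libraries, per the labels' protocols. The signal the authors deposited is counts of reads per gene scaled by a factor per sample. The values themselves show this: in each of the 6 columns 1 step fits all values, 100% of which are whole multiples of it within 0.001 of a step. For control 1 the step is so close to 1 that the large values decide it. Tools listed in the submitters' processing notes are Subread, STAR, Trimmomatic 0.36 and DESeq2; what each did, and the genome build, is not given in the sources used here. Tests used limma-trend on log2(value + 1) in limma 3.58.1 under R 4.3.3. Group was the only term, and an adjusted p (Benjamini-Hochberg) under 0.05 was the threshold. A minimum mean value of 1 removed 0 genes. Fold changes on that scale understate changes of low genes. Alternatives ran DESeq2 1.42.0, limma-voom and the quasi-likelihood test of edgeR 4.0.16 on the recovered reads. Others changed the scaling, set the pseudocount to 0.1, kept genes averaging 1 CPM or more, blocked by replicate, or left out each sample in turn. Methods were tested on simulated data. The genes and lists were chosen with earlier results of these data known. List genes were matched by symbol or RefSeq synonym; 9205 of 10013 identifiers matched Amel_HAv3.1, and 9710 are LOC numbers. Named genes were ecd, E75 and Jhe, the list genes that matched (up to 8 with values, by size of difference), Hsc70-3, the 2 nearest profiles with a symbol, and neighbours in gene order. Nothing in the labels says that samples were separate cages or colonies, so p-values measure only how these samples vary, which can be technical.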

Additional observations from a re-analysis of the deposited data

How the results depend on the processing

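The differences of ecd, E75 and Jhe moved by less than the SD within groups in all 51 alternative values (17 for each gene), and 0 changed sign. Their choice on the same samples nearly fixes that sign. Dropping the filter, keeping genes averaging 1 CPM or more and blocking by deposited table cannot move a gene's difference. Those alternatives therefore repeat the main value. With 1 sample left out ecd ranged from 0.81 to 0.96, E75 from 0.79 to 1.10 and Jhe from -1.48 to -0.90 on the log2 scale. None of 153 alternative fits of the 9 other hormone genes called one of them, and 0 were called higher or lower in any of the 17 alternatives. Their sign changed in 23 of the 153: Usp was at 0.0024 with edgeR and RLE scaling and 0.0024 with DESeq2; Br-c was at -0.0067 with upper-quartile scaling, -0.13 and -0.12 with edgeR (TMM and RLE) and -0.12 with DESeq2; Vg was at -0.0011 with upper-quartile scaling, -0.33 and -0.33 with edgeR, -0.32 with DESeq2 and -0.022 with limma-voom. With 1 sample left out Usp ranged from -0.090 to 0.091, Br-c from -0.55 to 0.32, LOC724216 from -0.25 to 1.07, Vg from -0.80 to 1.10, JHBP-1 from 0.26 to 0.81, Cyp314a1 from 0.19 to 0.58, Ecr from 0.16 to 0.44, E74 from 0.26 to 0.51 and Mblk-1 from -0.23 to -0.0037. The cause was not tested.

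Over all genes limma called 106 higher and 7 lower. DESeq2 called 401 and 117, and with 1 sample left out the counts ran from 18 to 180 higher and from 1 to 22 lower. The 180 and 22 came without control 1, and the 18 higher without control 3. Deviations of samples in the same deposited table correlated at 0.050, 0.15 and 0.048, and 4 of 6 samples correlated best with their own table's partner; those of samples with a shared number correlated at -0.12 and -0.10, so the numbers were not taken as pairs. The replicate block by deposited table called 41 higher and 3 lower. It left the differences of ecd, E75 and Jhe at 0.86, 0.95 and -1.17. It could not move them, since each deposited table holds 1 sample of each group. The replicate block by shared sample number (4 samples) called 4 higher and 0 lower, with ecd, E75 and Jhe at 0.91, 0.78 and -1.03, Br-c at -0.63, Vg at -0.25, Cyp314a1 at 0.098, Ecr at 0.057 and E74 at 0.19, against 0.39, 0.28 and 0.35 over all 6 samples. Omitting the filter on low values changes nothing, since it removes 0 genes. Groups of 3 samples limit what any test here can resolve.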

Other observations

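More genes were taken by symbol once the values had been seen. Some are tied to ecd or E75 by work in other animals. Err was taken as another nuclear receptor, and ILP-2 and InR-2 for the tie of the insulin pathway to juvenile hormone in bees. Of 7 such genes, 0 passed in limma, edgeR, DESeq2 or limma-voom, 0 had an unadjusted limma p under 0.05, and the limma adjusted p lay between 0.521 and 0.989. Of all genes, limma called 1.06% higher and 0.0699% lower, and 15.5% had such an unadjusted p. Fly E75 binds heme and its activity is changed by nitric oxide. Ho, heme oxygenase, which breaks heme down, had 545, 631 and 552 normalized reads in tunicamycin samples 2, 3 and 4, against 752, 616 and 617 in controls 1, 2 and 3 (log2 -0.20, SE 0.13). NOS, nitric oxide synthase, averaged 57.5 ± 10.7 in tunicamycin and 61.0 ± 11.4 in controls (SD, n = 3 each; log2 -0.084, SE 0.26). Err, an orphan nuclear receptor, averaged 2582 ± 338 in tunicamycin and 2427 ± 413 in controls (log2 0.096, SE 0.16).

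The human relative of ecd binds PIH1D1, a part of the R2TP chaperone complex, and the fly protein works with spliceosome parts. PIH1D1 had 147, 184 and 196 normalized reads in tunicamycin samples 2, 3 and 4, against 207, 177 and 206 in controls 1, 2 and 3 (log2 -0.17, SE 0.17). Prpf3, a splicing factor, was nearly level at 599.5 ± 51.3 in tunicamycin and 621 ± 14.2 in controls (log2 -0.054, SE 0.11). ILP-2, an insulin-like peptide whose pathway is tied to juvenile hormone in bees, averaged 100.04 ± 21.7 in tunicamycin and 105 ± 50.5 in controls (log2 0.019, SE 0.35), and the insulin receptor InR-2 averaged 43.9 ± 5.95 in tunicamycin and 36.3 ± 9.48 in controls (log2 0.29, SE 0.29).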
